A study of Mus musculus with 2 samples.

Results

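The T and NK lymphocytes of injured muscle are described here from 133 cell barcodes of 18982 that passed the filters, 65 of 10962 in the Setdb1 knockout (KO) library and 68 of 8020 in the wild-type (WT) library. A barcode was taken when it held at least 2000 UMIs (unique molecular identifiers, which count captured RNA molecules), at most 10% mitochondrial UMIs, and at least 3 UMIs in all of Cd3d, Cd3e, Cd3g, Trbc2, Ncr1 and Klrb1c. It also had to hold no UMI of the myeloid genes Csf1r, Flt3 and Cd209a, and at most 1 UMI of Pdgfra, Cdh5 and Cdh15, which mark mesenchymal, endothelial and myogenic cells. The barcodes were thus chosen by the UMIs of these genes, and their levels are given as a description only. The sum over the marker genes was exactly 3 in 6 KO and 6 WT barcodes, the weakest that were kept, while 13 KO and 2 WT barcodes with a sum of 2 fell just outside. The median marker sum was 11 UMIs in KO and 10.5 UMIs in WT barcodes, and the highest 54 and 79 UMIs.

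The study profiled cells of injured tibialis anterior muscle, a muscle of the lower hindlimb, by droplet sequencing of single cells (10x Genomics, 3' v2). The KO library came from mice with a conditional deletion of Setdb1, a histone methyltransferase that places repressive methyl marks on lysine 9 of histone H3, and the WT library from wild-type mice, all 8 to 12 weeks old. The study's title places its question in muscle stem cells. The sources used here do not name the driver of the deletion, the number of animals pooled, the injury or the day after it. Whether lymphocytes carry the deletion is therefore not known from the labels. There was 1 library per group: cells are not replicates, no p-value is given, and every interval is a 95% interval that covers counting error only.

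T lymphocytes recognise peptide on MHC molecules through an antigen receptor whose alpha and beta chains (Trac, Trbc1, Trbc2) pair with the CD3 subunits. Cytotoxic CD8 T cells and natural killer (NK) cells kill target cells with perforin and granzymes and secrete interferon gamma (Ifng) and chemokines, NK cells under the control of germline receptors such as NKp46 (Ncr1) and NK1.1 (Klrb1c). Gamma delta T cells use the Trdc chain and regulatory T cells the factor Foxp3, and both, with other lymphocytes, enter muscle after injury.

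The 65 KO barcodes held a median of 5524 UMIs (2167 to 33275) and the 68 WT barcodes a median of 8663.5 UMIs (2026 to 41854), with sums of 496356 and 744838 UMIs. The WT barcodes were thus deeper. For Gzmb the shares of barcodes with a UMI are also given after thinning to 2000 UMIs each. For other genes the numbers of barcodes with a UMI are unthinned and not adjusted for depth. KO and WT shared 26 barcode sequences among those that passed the filters and 0 among the lymphocytes. Setdb1 itself (ENSMUSG00000015697) was too sparse to check the labels in lymphocytes, with 7 UMIs in the KO sum (14.1 CPM, UMIs of the gene scaled to a common total) and 5 UMIs in the WT sum (6.71 CPM), a ratio of 2.10 [0.574 to 8.39].

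The antigen receptor and CD3 list, which holds genes of the rule and so was bound to be high, summed to 2859 CPM in KO and 1806 CPM in WT lymphocytes, against 10.04 and 6.98 CPM in all other barcodes of the same libraries. Of 5960 genes with 20 or more UMIs in both sums together, 96 (1.61%) were at least 4-fold higher than in the other barcodes in both libraries. The genes of the rule were not left out of this count. The label was checked on the leading genes outside the rule. By the ratio in the library where it was smaller, the leading genes outside the rule included Ifng, Samd3, the GTPase gene Gimap3, the NK receptor genes Klrc1 and Klra7, and the granule membrane gene Nkg7. Ifng stood at 330 CPM in KO and 313 CPM in WT lymphocytes, against 0.491 and 0.498 CPM in the other barcodes. Nkg7 stood at 1928 CPM in KO and 1770 CPM in WT lymphocytes, against 4.80 and 2.61 CPM elsewhere. Sh2d2a and Sh2d1a, adaptors of lymphocyte signalling, Gimap7, Il2rb, the beta chain of the interleukin 2 and 15 receptor, and Ctsw, a protease of cytotoxic cells, were also among the first 12, with ratios of 331 to 471 in KO and 333 to 476 in WT.

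Some barcodes carried RNA of other cell types. Counting the markers of 7 other types, 6 KO barcodes held 2.13% to 8.73% of their UMIs in them and no WT barcode exceeded 1.62%; this limit of 2% was set after the values were seen. These 6 mixed barcodes held 57154 UMIs, 11.5% of the KO sum. By the lower bound of the ratio, the leading KO genes of the whole set were Timp1, Serpinf1, Cthrc1, Col1a1, Sparc, Col3a1, Col5a3, Tnc, Oaf, Serpinh1, Ctsk and Col1a2, mostly collagen and matrix genes of fibroblasts. Col1a1, a collagen chain, had 335 UMIs in the KO and 21 UMIs in the WT sum, but 42 and 21 UMIs without the mixed barcodes. Over all lymphocytes 146 of 5960 genes (2.45%) were at least 2-fold higher in KO and 17 (0.285%) at least 2-fold lower, on the scale of log2(CPM + 20). Without the mixed barcodes 50 of 5725 genes (0.873%) were higher and 20 (0.349%) lower. By the same measure, on far larger sums, 0.0313% of genes in phagocyte and 0.156% in mesenchymal barcodes were higher in KO, and 0.0439% and 0.253% lower. In the remaining 59 KO and 68 WT barcodes, B and plasma cell markers summed to 143 CPM in KO and 109 CPM in WT (3 and 4 of 11 detected), with Cd79a, Ms4a1, Pax5, Jchain, Mzb1 and Fcmr at 0 in both. Neutrophil markers summed to 9.11 CPM in KO and 4.03 CPM in WT (3 of 9 detected in each), with Retnlg, Ly6g, Camp and Ngp at 0. Myogenic markers summed to 47.8 CPM in KO and 4.03 CPM in WT (5 and 2 of 8 detected), with Pax7, Myf5 and Myod1 at 0. Phagocyte markers, all 16 detected in both libraries, summed to 1760 CPM in KO and 1384 CPM in WT lymphocytes, against 46350 and 42492 CPM in the other barcodes.

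Lymphocytes made up 0.593% [0.458 to 0.755] of KO and 0.848% [0.659 to 1.07] of WT barcodes that passed the filters, a ratio of 0.699 [0.490 to 0.997]. Without the mixed barcodes the KO share was 0.538% [0.410 to 0.694] and the ratio 0.635 [0.440 to 0.913]. The genes of other cell types that the rule bars removed more barcodes in KO: 37 KO barcodes (0.338%) against 9 WT barcodes (0.112%) reached the marker sum and were left out by them. Before that step, 0.930% of KO and 0.960% of WT barcodes reached the marker sum. The share was thus lower in KO after the step that bars other cell types, and level before it. Between 500 UMIs and the minimum of 2000 a further 5 KO and 3 WT barcodes met the gene rule.

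The antigen receptor chains alone did not part T from NK cells, since 25 KO and 35 WT barcodes held both an NK receptor and a T cell receptor or CD3 gene, and only 3 KO and 2 WT barcodes held NK receptors with none of these. Barcodes were therefore sorted, after the values were seen, into gamma delta T (3 or more CD3 UMIs with Trdc), NK-receptor (Ncr1 or Klrb1c), Cd8 T (Cd8a or Cd8b1) and other T. Of the NK-receptor barcodes, 0 of 23 KO and 0 of 36 WT had a UMI of Cd3e, a CD3 subunit of the surface receptor. Cd3d, another subunit, was found in 4 KO and 6 WT ones, and Cd3g in 0 and 1. Barcodes with 3 or more CD3 UMIs and Trdc had already been sorted out of this class. Trbc1 was found in 20 of the 23 KO and 31 of the 36 WT ones, Trac in 3 and 8, and Eomes, a factor of NK and cytotoxic cells, in 17 and 30. In the plot of CD3 against NK receptor UMIs most barcodes lie along the axes. Those with an NK receptor UMI and more than 3 CD3 UMIs are gamma delta T barcodes, a class that was sorted first. They hold 1 to 5 NK receptor UMIs each.

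**Figure D1:**
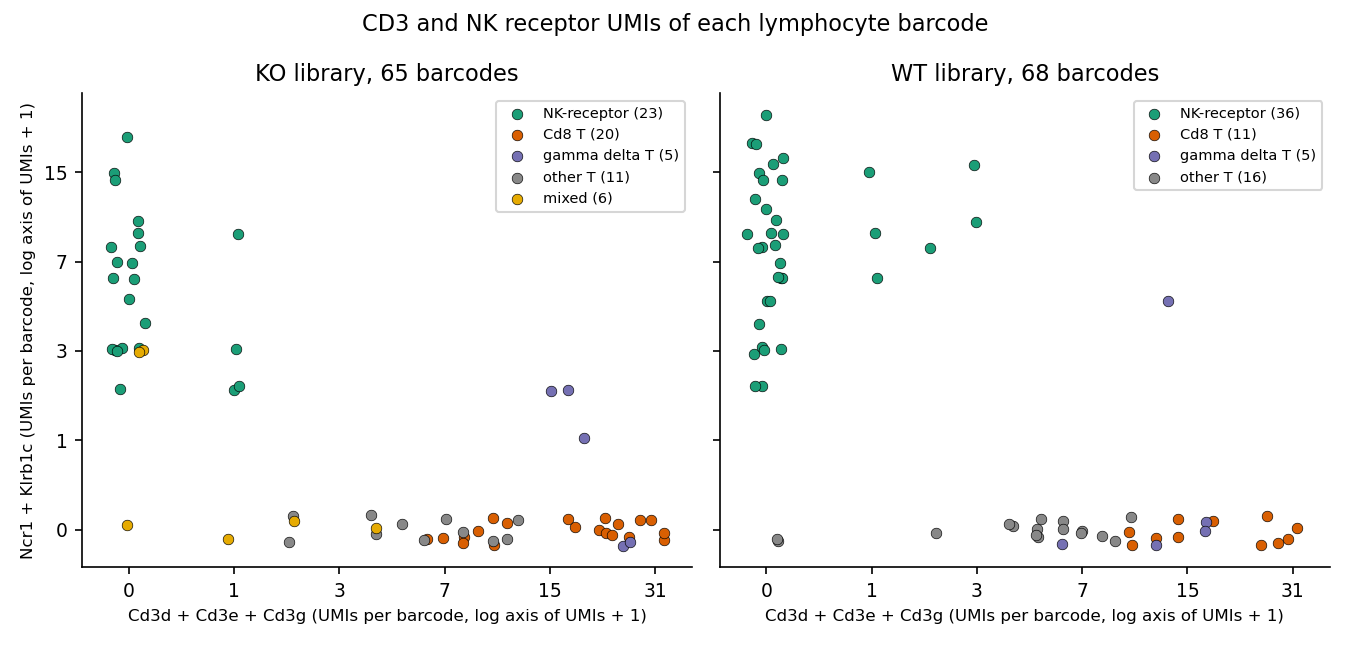
UMIs of Cd3d, Cd3e and Cd3g together (x, log axis of UMIs + 1) against Ncr1 and Klrb1c together (y, log axis of UMIs + 1) in each lymphocyte barcode, KO on the left and WT on the right, with a small jitter. NK-receptor barcodes (23 KO, 36 WT) lie at few or no CD3 UMIs, Cd8 T barcodes (20 KO, 11 WT) at no NK receptor UMI, and the 6 mixed barcodes are all in KO.

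Of the 4 classes, NK-receptor barcodes had a share ratio whose interval lay below 1. They were 0.210% [0.133 to 0.315] of KO and 0.449% [0.315 to 0.621] of WT barcodes, a ratio of 0.467 [0.264 to 0.811]. Cd8 T barcodes were 0.182% [0.111 to 0.282] in KO and 0.137% [0.0685 to 0.245] in WT, a ratio of 1.33 [0.608 to 3.07] that spans 1 and was 0.881 with a higher UMI minimum. Gamma delta T barcodes numbered 5 in KO and 5 in WT, and other T barcodes 11 in KO and 16 in WT, with ratios of 0.732 [0.168 to 3.18] and 0.503 [0.211 to 1.15] that also span 1. Among lymphocytes NK-receptor barcodes were 35.4% in KO and 52.9% in WT, and Cd8 T barcodes 30.8% in KO and 16.2% in WT. The median depth of these classes also differed, at 7983 UMIs in KO and 14745.5 UMIs in WT NK-receptor barcodes, and 4431 UMIs in KO and 10284 UMIs in WT Cd8 T barcodes; the part of depth in the class shares was not tested.

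**Figure D2:**
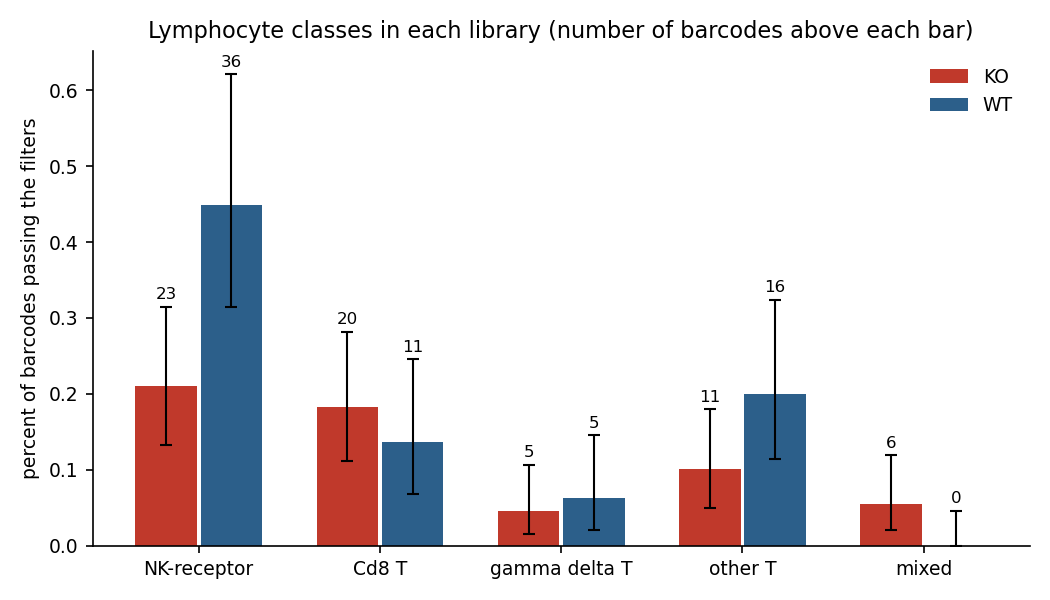
Share of each lymphocyte class among barcodes that passed the filters (percent), KO left and WT right in each pair, with 95% Clopper-Pearson intervals and the number of barcodes above each bar. The NK-receptor class stands at 0.210% in KO and 0.449% in WT, with intervals that meet at 0.315%, and the intervals of the Cd8 T, gamma delta T and other T classes overlap.

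Gzmb (chromosome 14, 56258838 to 56262260, minus strand, GRCm38) and Ifng (chromosome 10, 118441046 to 118445892, plus strand) were lower in the KO sum of NK-receptor barcodes and higher in that of Cd8 T barcodes. The sequences before their RefSeq starts (build GRCm38.p6) are shown because both classes read these genes from the same DNA. They cover 250 bases, Gzmb at chr14:56262335-56262584 on the minus strand and Ifng at chr10:118440796-118441045 on the plus strand. Capitals mark matches, on either strand, to TGANTCA (AP-1), TGTGGT (Runx) and TCACAC (T-box), motif families bound by factors of lymphocyte activation and cytotoxic cells.
Gzmb: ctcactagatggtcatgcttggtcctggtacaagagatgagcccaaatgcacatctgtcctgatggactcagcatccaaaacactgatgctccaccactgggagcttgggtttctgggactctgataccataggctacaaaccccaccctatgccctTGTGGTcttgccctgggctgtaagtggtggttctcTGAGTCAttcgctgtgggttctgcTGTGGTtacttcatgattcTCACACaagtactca
Ifng: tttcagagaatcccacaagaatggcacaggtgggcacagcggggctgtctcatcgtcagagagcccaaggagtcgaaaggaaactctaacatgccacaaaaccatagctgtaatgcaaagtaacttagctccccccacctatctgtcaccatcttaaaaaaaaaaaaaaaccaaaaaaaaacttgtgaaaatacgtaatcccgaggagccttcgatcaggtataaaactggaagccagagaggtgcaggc
The Gzmb window held 1 AP-1, 2 Runx and 1 T-box match with no overlap between them, and the Ifng window held none of these letters. Over 32851 RefSeq windows of the same length, 6.75% held the AP-1, 14% the Runx and 12.3% the T-box letters. Xcl1 held 1 Runx and 1 T-box match and Gzma 1 Runx match.

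Among NK-receptor barcodes the KO sum was lower for the granzymes, interferon gamma and several chemokines. Of 4383 genes tested in this class 84 (1.92%) were at least 2-fold higher in KO and 55 (1.25%) at least 2-fold lower. By any amount, 2199 of the 4383 genes were higher and 2184 lower. The 12 lowest by the upper bound of the ratio were AC160336.1, Sag, Cxcl10, Nfkbia, Ifng, Gzmb, Knop1, Amd2, Ly6a, Trim27, Serpinb6b and Xcl1. For Sag, 98.4% of the 124 WT UMIs lay in 1 barcode.

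Gzma, the most abundant granzyme gene here (ENSMUSG00000023132), had a lowest, median and highest value of 0, 29 and 130 UMIs in KO and of 1, 77 and 246 UMIs in WT NK-receptor barcodes. The ranges overlapped, with medians of 3695 CPM in KO and 6767 CPM in WT barcodes. In the sums KO stood at 0.716 of WT [0.666 to 0.770]. Gzmb (ENSMUSG00000015437), the granzyme that cleaves caspases, had a lowest, median and highest value of 0, 4 and 14 UMIs in KO and of 0, 8 and 102 UMIs in WT barcodes. It had 102 UMIs in 18 of 23 KO and 633 UMIs in 31 of 36 WT barcodes. Its sums were 449 CPM in KO and 1149 CPM in WT, a ratio of 0.390 [0.314 to 0.482]. The medians per barcode lay closer, at 362 CPM in KO and 521 CPM in WT, since the WT sum was carried by barcodes that reached 5676 CPM, beyond the KO maximum of 2678 CPM. After thinning, Gzmb was found in 47.8% [26.8 to 69.4] of KO and 69.4% [51.9 to 83.7] of WT NK-receptor barcodes, against 78.3% and 86.1% unthinned and 0% and 0.248% of thinned mesenchymal barcodes, which should lack it.

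Ifng (ENSMUSG00000055170) was found in 9 of 23 KO and 17 of 36 WT NK-receptor barcodes, with 28 UMIs in KO and 221 UMIs in WT, a ratio of 0.307 [0.199 to 0.456]. A single WT barcode held 86 of these UMIs, and without it the ratio was 0.490 [0.314 to 0.740]. Both medians were 0 UMIs, so the difference lies in the barcodes with Ifng and not in a typical barcode. Xcl1, the chemokine that attracts cross-presenting dendritic cells, had 252 UMIs in 18 KO and 1201 UMIs in 32 WT barcodes, a ratio of 0.508 [0.442 to 0.583]. Its medians per barcode were nearly level, at 1048 CPM in KO and 1098 CPM in WT, and without the KO or the WT barcode with most UMIs the ratio was 0.365 or 0.612. Ccl4, a chemokine of activated NK and T cells, stood at 0.543 of the WT sum [0.427 to 0.685], and at 0.784 [0.609 to 1.00] without 1 WT barcode. Ccl5, another chemokine of these cells, stood at 0.651 [0.564 to 0.750], but at 0.918 [0.790 to 1.06] without the WT barcode that held 277 of its 930 UMIs.

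Among single genes lower in the KO sum, Nfkbia, the NF-kappa-B inhibitor induced by that pathway, had 57 UMIs in 17 KO and 424 UMIs in 32 WT barcodes, a ratio of 0.326 [0.243 to 0.430]. Serpinb6b, a serpin, stood at 0.397 [0.274 to 0.561], Cd69, an early activation antigen, at 0.499 [0.349 to 0.698], and the costimulatory receptor Tnfrsf9 at 0.404 [0.165 to 0.861]. Cxcl10, an interferon-induced chemokine, had 8 UMIs in KO and 165 UMIs in WT, a ratio of 0.117 [0.0499 to 0.237]. Cxcl10 was also lower in KO phagocyte barcodes, at 0.633 [0.618 to 0.649], and mesenchymal barcodes, at 0.480 [0.458 to 0.503]. Ly6a, the stem cell antigen that interferon raises, stood at 0.308 [0.171 to 0.519] in NK-receptor and at 0.445 [0.436 to 0.455] in phagocyte barcodes. The interferon-stimulated list as a whole leaned the other way in NK-receptor barcodes, with 23 higher and 8 lower of 31 genes and a median log2 ratio of 0.22. Nfkbia was instead higher in KO phagocyte barcodes, at 1.35 [1.33 to 1.37].

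The NK receptor list holds Ncr1 and Klrb1c, which chose the class in both libraries, so its levels are a description. Of 23 tested genes of the NK receptor list 15 were higher and 8 lower in KO, with a median log2 ratio of 0.11 beside 0.00 for all genes, and 0 passed 2-fold in either direction. Nkg7 stood at a ratio of 1.01 [0.896 to 1.13], the perforin gene Prf1 at 0.967 [0.738 to 1.26], Eomes at 1.08 [0.775 to 1.49], the CD94 gene Klrd1 at 1.13 [0.930 to 1.38] and the signalling adaptor Fcer1g at 1.05 [0.939 to 1.18]. Tyrobp, the DAP12 adaptor, was at 1.29 [1.14 to 1.45]. Klra4, a Ly49 receptor gene, was at 1.93 [1.495 to 2.47], although it has close paralogs among which reads may be split, and after thinning its log2 ratio was -0.38. Among 14 cytotoxic genes 5 were higher and 9 lower (median log2 ratio -0.15), and among 5 chemokines 1 was higher and 4 lower (median -0.85).

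Among genes higher in KO NK-receptor barcodes, Zfp36, an RNA decay factor of the early stress response, had 45 UMIs in 13 KO and 26 UMIs in 14 WT barcodes, a ratio of 4.19 [2.53 to 7.08], and 3.16 [1.81 to 5.57] without its highest KO barcode. Dusp1, a phosphatase of the same response, stood at 2.78 [2.17 to 3.58], and 2.20 [1.67 to 2.91] without its highest. The immediate early and heat shock list held 21 higher and 11 lower of 32 tested, with a median log2 ratio of 0.26. Ly6c2 (ratio 9.21), Mgp, Cxcl2 and Sparc took 66.7% to 86.7% of their KO UMIs from 1 barcode each, and weighting the barcodes equally turned Ly6c2 to a log2 ratio of -0.20. Col1a1 took 52.2% from 1 KO barcode, and fibro-adipogenic markers summed to 493 CPM in KO and 131 CPM in WT NK-receptor barcodes (0% to 0.576% of a KO and 0% to 0.0520% of a WT barcode, 6 and 7 of 8 markers detected, Pdgfrb at 0); their part in these genes was not tested. The proliferation genes Mki67, Top2a and Cenpf stood at 1.83, 1.38 and 1.79, and without 1 KO barcode each at 1.22 [0.844 to 1.74], 0.953 [0.741 to 1.22] and 1.17 [0.666 to 2.01].

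In Cd8 T barcodes the KO sum was higher for Gzmb, Ifng and Ccl5, and lower for the chemokine Ccl4 and genes of the cell cycle. The difference between the classes was not tested, since no replicate exists to test it. Of 1644 genes tested in this class 93 (5.66%) were at least 2-fold higher in KO and 60 (3.65%) at least 2-fold lower, shares that are larger than in the NK-receptor class on sums of only 128297 UMIs in KO and 100656 UMIs in WT. The 12 highest were Rgs5, Acta2, Gzmb, Car2, Ccl5, Ifng, Igfbp7, Cd7, Plac8, S100a6, Rgs1 and Gramd3. The 12 lowest were Prc1, Cenpf, Mki67, Ccl4, H2ax, Top2a, Satb1, Cenpw, Ikzf1, Serinc3, Smc1a and Tmpo. Rgs5, Acta2 and Igfbp7 are genes of mural cells and took 92.2% to 100% of their KO UMIs from 1 barcode, and mural markers summed to 764 CPM in KO and 39.7 CPM in WT Cd8 T barcodes (0% to 0.786% of a KO and 0% to 0.0227% of a WT barcode, 5 and 4 of 6 markers detected); their part in these genes was not tested. Phagocyte markers summed to 1723 CPM in KO and 1222 CPM in WT Cd8 T barcodes, and to 1706 CPM in KO and 1251 CPM in WT NK-receptor barcodes. Fibro-adipogenic markers summed to 413 CPM in KO and 139 CPM in WT Cd8 T barcodes. The free RNA share that other cells' markers allow, read from barcodes of 20 to 100 UMIs, was up to 3.26% in KO and 0% in WT Cd8 T barcodes and up to 3.10% in KO and 0.583% in WT NK-receptor barcodes; its part in the results was not tested.

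Gzmb had a lowest, median and highest value of 0, 6 and 26 UMIs in the 20 KO Cd8 T barcodes and of 0, 0 and 8 UMIs in the 11 WT ones. It was found in 18 of 20 KO and 4 of 11 WT barcodes, with sums of 1317 CPM in KO and 149 CPM in WT and a ratio of 8.84 [5.21 to 16.1]. Leaving out the KO or the WT barcode with most UMIs gave 8.23 or 17. After thinning it was found in 75.0% [50.9 to 91.3] of KO and 18.2% [2.28 to 51.8] of WT Cd8 T barcodes, although the KO barcodes were the shallower ones before thinning. Ifng was found in 10 of 20 KO and 4 of 11 WT barcodes, with 81 UMIs in KO and 6 UMIs in WT, a ratio of 10.6 [4.66 to 29.7], and 7.33 [3.16 to 20.8] without the KO barcode that held 27. Gzmb and Ifng occurred in the same barcode in 10 of 20 KO and 2 of 11 WT Cd8 T barcodes, and in 7 of 23 KO and 16 of 36 WT NK-receptor barcodes.

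Ccl5 (ENSMUSG00000035042, chromosome 11, 83525778 to 83530518, minus strand, GRCm38) was the most abundant of these genes. It had 1836 UMIs in 19 of 20 KO and 260 UMIs in 10 of 11 WT Cd8 T barcodes, with medians of 13342 CPM in KO and 881 CPM in WT barcodes. The ratio of the sums was 5.54 [4.86 to 6.33], and it was 4.76 or 8.77 without the highest KO or WT barcode. In phagocyte barcodes Ccl5 was instead lower in KO, at 58.8 CPM in KO and 116.6 CPM in WT. Nkg7 stood at 1.61 [1.37 to 1.90]. Gzma was found in 12 of 20 KO barcodes but only 1 of 11 WT barcodes, whose 62 UMIs brought the ratio of the sums to 1.13 [0.805 to 1.58].

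**Figure D3:**
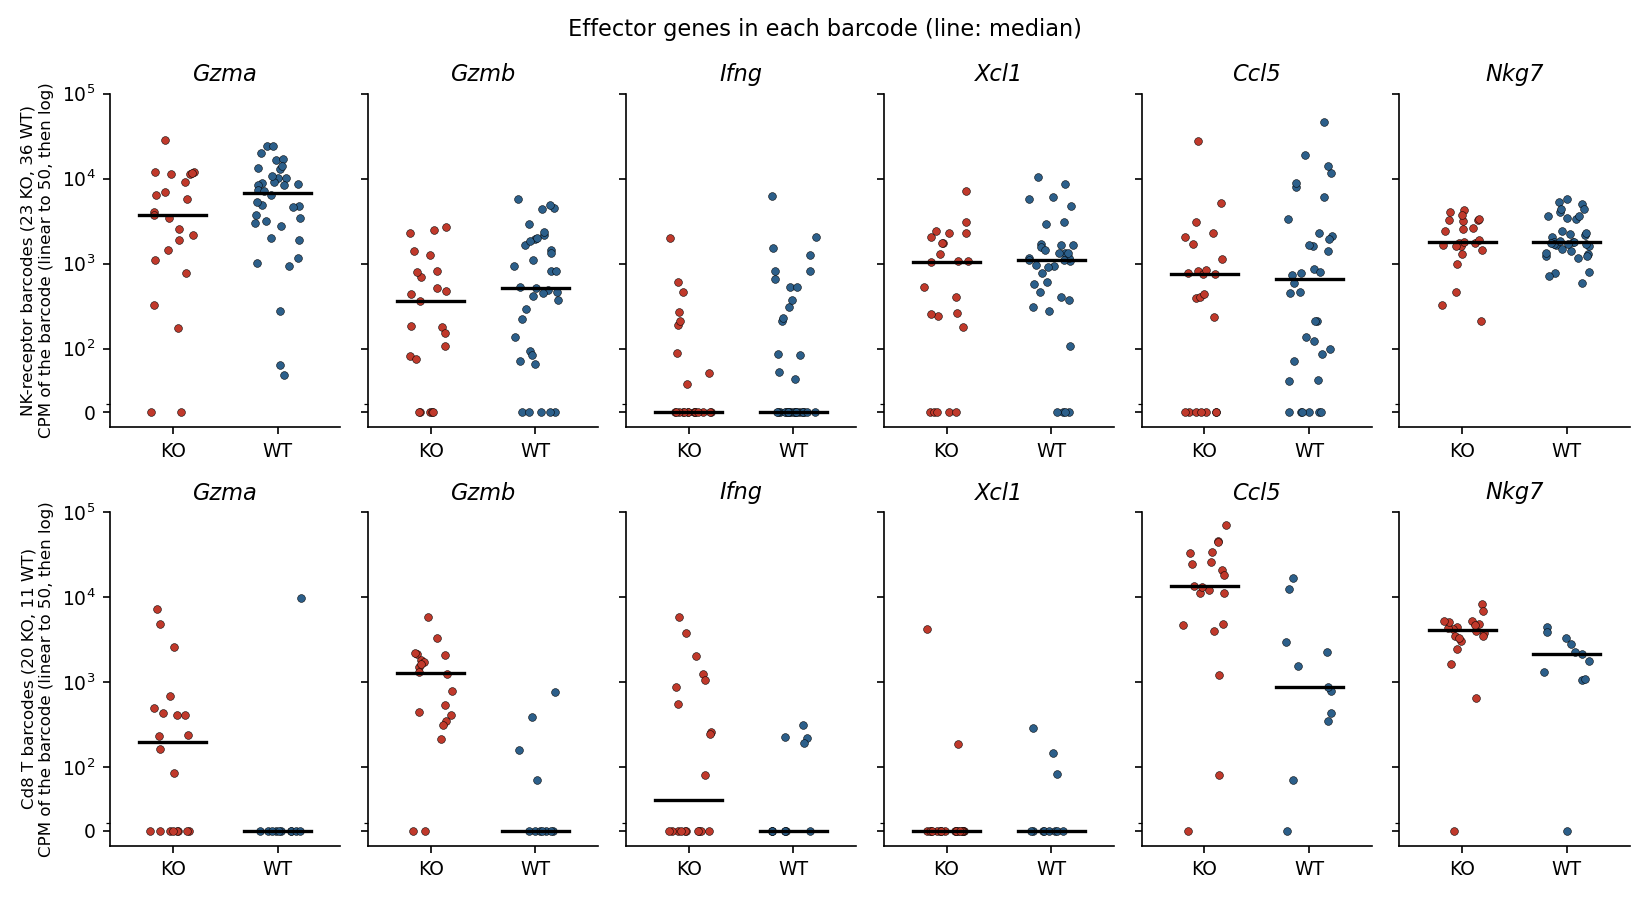
CPM of 6 effector genes in each barcode (linear to 50, then log), NK-receptor barcodes above and Cd8 T barcodes below, KO left and WT right in each panel, with the median as a line. In Cd8 T barcodes Gzmb is found in 18 of 20 KO and 4 of 11 WT barcodes and the Ccl5 medians are 13342 and 881 CPM. The KO and WT points overlap for all 6 genes in both classes.

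Genes of tissue retention were higher as a group in KO Cd8 T barcodes, 7 of 7 tested with a median log2 ratio of 0.70 beside 0.04 for all genes, 3 of them at least 2-fold. Rgs1, a regulator of G protein signalling that limits egress, had 109 UMIs in 15 KO and 22 UMIs in 6 WT barcodes, a ratio of 3.89 [2.44 to 6.46]. Cxcr6, the receptor of Cxcl16 on resident cells, had 63 UMIs in 16 KO and 15 UMIs in 6 WT barcodes, a ratio of 3.30 [1.85 to 6.23], and Rgs2 had 27 and 4 UMIs. All 8 tested cytotoxic genes were higher, with a median of 0.50, but only the intervals of Gzmb and Nkg7 lay above 1. Of all 1644 genes tested in this class 862 were higher and 93 (5.66%) at least 2-fold higher. Gzmk stood at 1.53 [0.871 to 2.77]. Plac8 stood at 4.26 [2.83 to 6.62], the calcium-binding S100a6 at 3.24 [2.68 to 3.93], S100a4 at 2.33 [1.63 to 3.41] and the costimulatory receptor Cd28 at 2.82 [1.37 to 6.38]. S100a6 lay near parity in KO against WT phagocyte (1.10) and mesenchymal barcodes (1.03). Car2, a carbonic anhydrase gene, had 26 UMIs in 9 KO barcodes, or 203 CPM, and 0 UMIs in WT, which allows up to 36.6 CPM.

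Of the 4 tested genes of the naive and memory list, 1 was higher and 3 lower in the KO Cd8 T sum, with a median log2 ratio of -0.86. Satb1, a chromatin organiser of thymocytes, stood at 0.165 [0.0409 to 0.497] and Il7r, the interleukin 7 receptor, at 0.168 [0.0310 to 0.602]. Il7r and Eomes each held fewer than 20 UMIs in both sums together and so were not among the genes tested. Without 1 WT barcode Satb1 stood at 0.387 [0.0831 to 1.52] and Eomes at 0.422 [0.109 to 1.46]. Eomes stood at 0.280 [0.0790 to 0.823] and Ly6c2, a marker of memory and effector CD8 cells with a near-identical paralog, at 0.626 [0.510 to 0.766]. Klf2, a factor of quiescent T cells, was at 1.56 [1.12 to 2.17], and at 1.19 [0.841 to 1.70] without 1 KO barcode. All 13 tested G2 and M phase genes were lower in KO, 6 of them at least 2-fold, with a median log2 ratio of -0.95. Their sums were 1917 CPM in KO and 4709 CPM in WT. Of all 1644 genes tested in this class 782 were lower and 60 (3.65%) at least 2-fold lower. The list was not recomputed without its highest barcode. Mki67 was found in 4 of 20 KO and 4 of 11 WT barcodes with 9 UMIs in KO and 37 UMIs in WT, a ratio of 0.191 [0.0810 to 0.403], and 0.339 [0.134 to 0.794] without 1 WT barcode. Cenpf had 19 of its 24 WT UMIs in 1 barcode, and without it 0.407 [0.0631 to 2.09]. Interferon-stimulated genes stood on both sides, 11 higher and 13 lower of 24, with a median of -0.09.

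**Figure D4:**
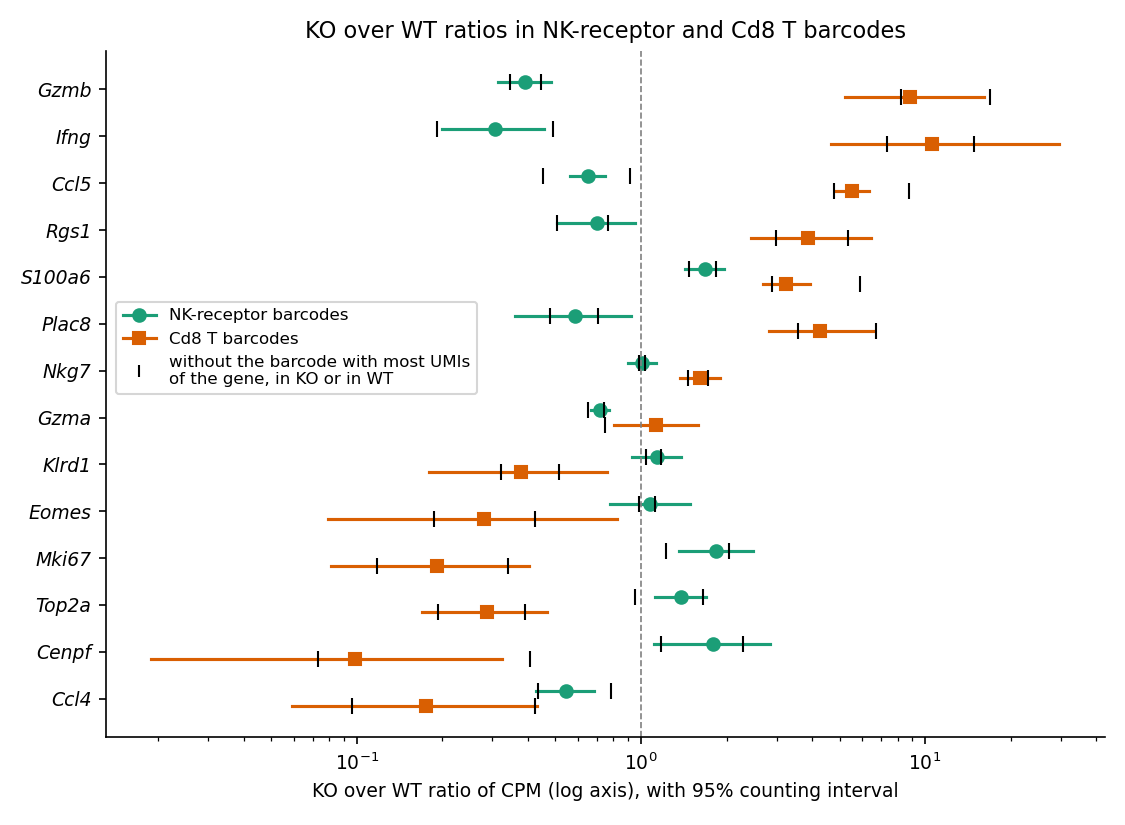
KO over WT ratio of CPM (log axis) for 14 genes in NK-receptor barcodes (circles) and Cd8 T barcodes (squares), with 95% counting intervals; black ticks give the ratio without the KO or the WT barcode that holds most UMIs of the gene, where WT keeps a UMI. Gzmb, Ifng, Ccl5 and Rgs1 lie below 1 in NK-receptor and above 1 in Cd8 T barcodes, and Mki67, Top2a and Cenpf the other way round.

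**Figure D5:**
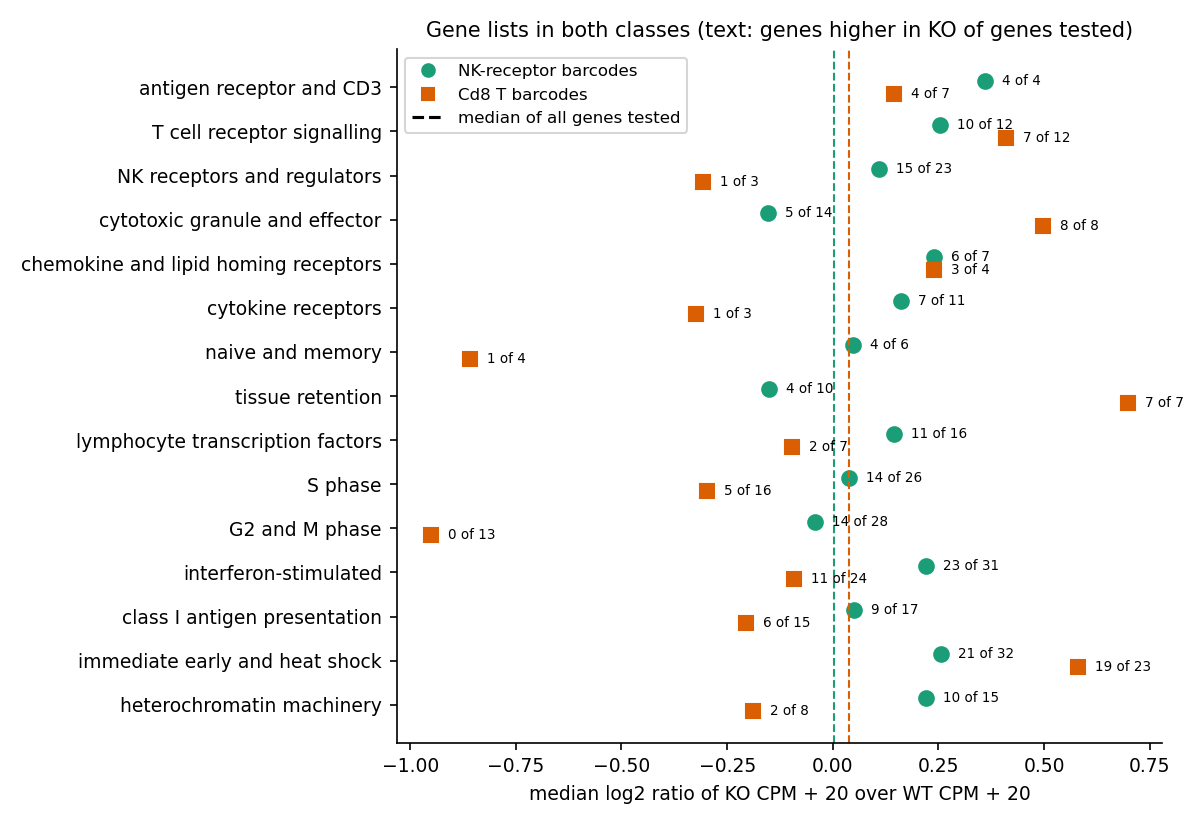
Median log2 ratio of KO CPM + 20 over WT CPM + 20 for the gene lists with at least 3 genes tested in both classes, in NK-receptor (circles) and Cd8 T (squares) barcodes, with the number of genes higher in KO of those tested; dashed lines are the medians of all genes, 0.00 and 0.04. In Cd8 T barcodes tissue retention (0.70) has the highest and G2 and M phase (-0.95) the lowest median, while the NK-receptor medians of these lists lie between -0.15 and 0.36; lists with fewer genes tested are not drawn.

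The 5 KO and 5 WT gamma delta T barcodes are too few for more than values. Trdc had 70 UMIs in KO and 69 UMIs in WT, and Trgc1, a gamma chain constant gene, 29 and 20 UMIs. Cd163l1 (scavenger receptor SCART1), found on gamma delta T cells, had 9 UMIs in 2 KO and 11 UMIs in 2 WT barcodes. Klf2 had 67 UMIs in 4 KO and 3 UMIs in 3 WT barcodes, and Junb, an AP-1 subunit, 23 UMIs in 4 KO and 92 UMIs in 5 WT barcodes, a ratio of 0.199 [0.120 to 0.317]. Ifng came from 1 barcode in each library, with 54 UMIs in KO and 6 UMIs in WT.

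The 11 KO and 16 WT other T barcodes held neither NK receptor nor Cd8 UMIs, and 3 KO and 2 WT of them held Cd4. Foxp3, the factor of regulatory T cells, had 6 UMIs in 2 KO and 2 UMIs in 2 WT barcodes of this class. It was also found in 1 WT Cd8 T and 1 WT gamma delta T barcode. Among all barcodes with no NK receptor, leaving out the mixed ones, 2 of 33 KO and 4 of 31 WT held Foxp3. Ctla4, an inhibitory receptor abundant on regulatory cells, had 21 UMIs in KO and 7 UMIs in WT (4.25 [1.74 to 11.8]), but 2.32 [0.797 to 7.18] without 1 KO barcode. Icos (3.15 [1.37 to 7.85]) and Tnfrsf4 (2.83 [1.36 to 6.21]) likewise spanned 1 without their highest KO barcode. Areg, a growth factor of regulatory T cells in injured muscle, had 37 UMIs in KO, 33 of them in 1 barcode, and 31 UMIs in 6 WT barcodes. Bcl2a1b, a survival gene with near-identical copies, had 28 UMIs in 8 KO barcodes and 1 UMI in WT. S100a6 was again higher, with a ratio of 2.89 [2.18 to 3.84] and 157 UMIs in all 11 KO barcodes against 77 UMIs in 12 of 16 WT barcodes. Ifi27l2a, an interferon-induced gene, stood at 0.353 [0.264 to 0.464]. Ccl5 had 3 UMIs in 1 KO barcode and 132 UMIs in 6 WT barcodes, 74 of them in 1 barcode and 43 in another. Among all barcodes with no NK receptor, leaving out the mixed ones, 20 of 33 KO and 11 of 31 WT held Cd8 and no Cd4, and 3 KO and 2 WT held Cd4 and no Cd8.

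Pooled values sum classes with different directions. Without the mixed barcodes Gzmb stood at 0.791 [0.691 to 0.905] and Ifng at 1.19 [0.965 to 1.46]. For Ifng 1 gamma delta T barcode held 54 of the 163 KO UMIs, and without it the ratio was 0.806 [0.636 to 1.02], or 1.85 [1.47 to 2.32] without the highest WT barcode. Xcl1, with 560 CPM in KO and 1663 CPM in WT, and Gzma, with 2194 CPM in KO and 4471 CPM in WT, were lower, and Ccl5 higher, in the pooled sums, which also carry the smaller KO share of NK-receptor barcodes. The antigen receptor and CD3 list had a median log2 ratio of 0.70 over all lymphocytes but -0.20 in the T class alone, the barcodes with no NK receptor, where 191 of 3000 genes (6.37%) were at least 2-fold higher and 72 (2.4%) lower in KO. This class held 4 of the 6 mixed barcodes, and fibro-adipogenic markers summed to 6042 CPM in its KO and 313 CPM in its WT sum, phagocyte markers to 6411 and 1830 CPM. Without the mixed barcodes the median of the antigen receptor list was 0.09, its sums were 5914 CPM in KO and 5447 CPM in WT, and 79 of 2636 genes (3%) were higher and 60 (2.28%) lower.

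The gene that led the lower side in NK-receptor barcodes differed in the other cells of the libraries as well. AC160336.1 (ENSMUSG00000115801), annotated as a lincRNA on the minus strand of chromosome 14 from 44544055 to 44637201, had 1 UMI in the KO and 262 UMIs in the WT lymphocyte sum. It had 0 UMIs in every KO class other than the mixed barcodes, and in 26 of 36 WT NK-receptor barcodes 229 UMIs. In phagocyte barcodes it stood at 3.99 CPM in KO and 376 CPM in WT, in dendritic barcodes at 1.5 and 282 CPM, and in mesenchymal barcodes at 4.14 and 297 CPM. AA465934, a noncoding transcript on chromosome 11, ran the other way in each of them. Its ratio was 5.84 [2.71 to 13.9] in lymphocytes without the mixed barcodes, 4.98 in phagocyte, 6.59 in dendritic and 4.85 in mesenchymal barcodes.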

How the data were processed

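Single-cell libraries (10x Genomics 3' v2) of KO and WT muscle, 1 each, were analysed from the unfiltered UMI count matrices the authors deposited, 55487 genes by 3331422 KO and 2821644 WT barcodes with 138667420 and 121703522 UMIs. Reads were processed with tools listed in the submitters' processing notes as Seurat 4.0.1, STAR 2.7.8a and STARsolo 2.7.9a, with the build GRCm38. Which annotation and which settings served the counting is not given in the sources used.

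Barcodes with 2000 or more UMIs and at most 10% mitochondrial UMIs were kept, and the lymphocyte rule was applied. The rule, the gene lists (22 of lymphocyte genes, 12 of other cell types) and the tests were chosen with earlier results of these data known, and the 4 classes, the mixed barcodes and several alternatives after the values were seen. Phagocyte, dendritic and mesenchymal barcodes are those with 2 or more UMIs of the genes that mark them. UMIs were summed per library and class. Ratios of CPM carry exact conditional binomial intervals, CPM exact Poisson and shares Clopper-Pearson intervals, all at 95% and for counting error only. Genes were tested with 20 or more UMIs in both sums together. The genes named are the 12 highest and 12 lowest by the bound of the ratio nearest to 1, among genes reaching 50 CPM in 1 sum, and members of the lists. Mitochondrial, ribosomal, haemoglobin, immunoglobulin, sex-linked Y and Xist genes and unnamed models were left out, and a few genes are not reported here. Doublets were not removed from the values reported. Scrublet's own threshold marked 0 KO and 139 WT barcodes (1.73%), so as an alternative the barcodes with the highest scores, 961 KO and 515 WT, were removed. Among the lymphocytes this took out 3 KO and 5 WT barcodes, and 0 of the mixed barcodes. Interval coverage was tested on simulated Poisson counts, which hold counting error only, as the intervals assume. That test cannot speak to spread between barcodes or animals. Coordinates are GENCODE M21 and promoters RefSeq, which held 4 of 6 genes asked for. Tools were Python 3.11.15, numpy 2.4.6, scipy 1.17.1, pandas 2.3.3, scanpy 1.11.5 and matplotlib 3.10.9.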

Additional observations from a re-analysis of the deposited data

Results flagged for a closer look

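Some genes lay above 1 in one lymphocyte class and below 1 in the other by the KO over WT ratio of CPM, with both counting intervals excluding 1. The difference between the classes was not tested. The effector genes Gzmb, Ifng and Ccl5, and Rgs1, were lower in NK-receptor and higher in Cd8 T barcodes. Gzmb stood at 0.390 and 8.84, Ifng at 0.307 and 10.6, Ccl5 at 0.651 and 5.54, and Rgs1 at 0.698 and 3.89. Ccl5 and Rgs1 in NK-receptor barcodes each spanned 1 without 1 WT barcode. Cell cycle genes ran the other way, with Mki67 at 1.83 in NK-receptor and 0.191 in Cd8 T barcodes, Top2a at 1.38 and 0.286, and Cenpf at 1.79 and 0.0981, and all 3 spanned 1 in NK-receptor barcodes without 1 KO barcode. Ikzf1, a zinc finger factor of lymphocyte development, stood at 1.99 and 0.196, Cbx5, the heterochromatin protein HP1 alpha, at 1.99 and 0.353, Ly6e at 1.20 and 0.691, and Ly6c2 at 9.21 and 0.626. In NK-receptor barcodes 26 of the 38 KO UMIs of Ly6c2 came from 1 barcode.

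Barcodes that reached the lymphocyte marker sum but were left out for genes of other cell types made up 0.338% [0.238 to 0.465] of KO and 0.112% [0.0513 to 0.213] of WT barcodes, a ratio of 3.01 [1.43 to 7.09]. None of the gene comparisons uses them.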

How the results depend on the processing

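With 1 library a group, the limits are the number of barcodes (20 KO and 11 WT in the Cd8 T class), single barcodes that hold much of a gene's UMIs, and the higher UMI count per lymphocyte barcode in WT. No paired analysis was possible because each group has 1 library. The NK class alone was not run, since it held 3 KO and 2 WT barcodes. Under the alternatives run, the KO over WT share ratio of NK-receptor barcodes ran between 0.390 and 0.540, and that of Cd8 T barcodes between 0.881 and 1.88, on both sides of 1. By log2 ratio, Ccl5 in Cd8 T barcodes was 2.46, but 1.55 with the highest UMI minimum and 3.65 without the highest Scrublet scores. Gzmb in Cd8 T barcodes was 2.98, and 2.25 thinned, and in NK-receptor barcodes -1.32, and -0.77 thinned.

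Over all lymphocytes, genes at least 2-fold higher numbered 146 and lower 17. The count higher was 79 with 50 or more UMIs, 311 (and 87 lower) with a pseudocount of 5, 50 without mixed barcodes, and 74 (29 lower) thinned to 2000 UMIs. It was 84 (55 lower) in NK-receptor and 93 (60 lower) in Cd8 T barcodes, and 72 were lower in the T class. In the T class without mixed barcodes, an alternative chosen after seeing the data, 79 were higher and 60 lower, and 8 lists lay above the median. Of lists with at least 5 genes tested, those above the median of all genes were 11, against 5 in Cd8 T barcodes, 3 in the T class and 6 thinned. The T class was 56.9% of KO and 45.6% of WT lymphocytes, but 41.7% and 26.1% with the highest UMI minimum tried. NK receptor barcodes of the first sorting were 43.1% in KO and 54.4% in WT, but 58.3% and 73.9% with the highest UMI minimum tried, 41.2% in WT thinned to 2000, and 16.9% and 25% thinned to 1000. Genes 4-fold over other barcodes were 96, and 174 over mesenchymal ones.

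Log2 ratios that changed sign from those of all lymphocytes were, in Cd8 T barcodes, Serpinf1 -0.107, Tnc -0.107, Col3a1 -0.20, Ifitm1 -0.58, Ly6c2 -0.67, Fabp4 -0.81, Amd2 0.088, Gzma 0.17, Prf1 0.24, Cd69 0.26, Atf3 0.42, Sag 0.47, Xcl1 0.61, Serpinb6b 1.19, Gzmb 2.98 and Car2 3.48. In NK-receptor barcodes they were Serpinh1 -0.014, Cd3g -0.13, Ifitm1 -0.13, Trac -0.33, Ccl5 -0.61, Cxcr6 -0.78, Eomes 0.10, Klrd1 0.18 and Top2a 0.45. In the T class they were Trac -0.0073, the antigen receptor and CD3 list -0.20, Ly6c2 -0.69, Gzma 0.081, Sag 0.28, Xcl1 0.33, Cxcl10 0.34, Gzmb 1.47 and Car2 2.71, and without its mixed barcodes Tnc -0.0024, Timp1 -0.21, Ly6c2 -0.37, Serpinb6b 0.075, Sag 0.34, Gzma 0.40, Xcl1 0.50, Gzmb 1.80 and Car2 2.99. Gzmb was 0.053 with a marker sum of at least 5 and 0.15 thinned, Nkg7 -0.050 thinned, and Ifitm1 -0.098 without the highest Scrublet scores. Within NK-receptor barcodes thinning gave Ccr2 -0.040, Klra4 -0.38 and Ly6c2 -0.88, and equal weights Ly6c2 -0.20. Restricting to a class changes which cells are summed; for the other settings the cause was not tested.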
